A study of Mus musculus with 3 samples.

Results

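The genes described here are Mmp8, Mmp9, Retnlg, Cxcr2, Il1b, Ccl6 and Padi4, 7 of the 28692 gene IDs in a single-cell count table from mouse bone marrow. They were chosen by name as genes of late neutrophil maturation, centred on gelatinase granules and a chemokine receptor. Each was found by its Ensembl ID, and all 7 had UMIs (unique molecular identifiers, 1 for each captured transcript molecule). The cells came from wild-type C57BL/6 mice. Marrow of the hindlimbs was enriched on CD117 beads, stained and sorted as modified granulocyte-monocyte progenitors. Male cells and female cells gave 1 mRNA library each, and a further library, pooled over both sexes, counted antibody tags for Ly-6G, CD11b, Ly-6C and CD117. The labels do not say how many mice stand behind a library. The authors gave each cell 1 of 17 cluster names, and the neutrophil clusters Myelo-4, Myelo-3, Myelo-2 and Myelo-1 carry most of what follows. No treatment or mutant was included, so every comparison is between cells of the same 2 libraries.

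Neutrophils build their granules in order as they mature. Azurophilic granules with Mpo and Elane are made first, specific granules with Ltf and Camp later, and gelatinase granules, which release matrix proteases when the cell leaves the blood, later still. Mmp8 encodes neutrophil collagenase, and Mmp9 encodes gelatinase B, the protease that gives the gelatinase granule its name. Retnlg encodes a secreted resistin-like protein of mouse neutrophils. Cxcr2 encodes the receptor for chemokines that draw neutrophils out of the marrow. Padi4 encodes a peptidylarginine deiminase that citrullinates histones and is known for its part in neutrophil extracellular traps. Il1b encodes the cytokine interleukin-1 beta, and Ccl6 a C-C chemokine of rodents.

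By RefSeq's annotation of GRCm38.p6, a patch release of the mm10 build named by the submitters, Mmp8 (ENSMUSG00000005800) lies at chr9:7558429-7568486 and Mmp9 (ENSMUSG00000017737) at chr2:164940326-164955850. Retnlg (ENSMUSG00000022651) lies at chr16:48872608-48874498 and Cxcr2 (ENSMUSG00000026180) at chr1:74153994-74161246. Il1b (ENSMUSG00000027398) lies at chr2:129364569-129371164, on the chromosome of Mmp9. Ccl6 (ENSMUSG00000018927) lies at chr11:83587886-83593087 and Padi4 (ENSMUSG00000025330) at chr4:140745508-140774239. These are 6 chromosomes for 7 genes, so no 2 members are close neighbours.

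By level, Mmp8 and Retnlg were highest in Myelo-4, Padi4 stood high across Myelo-2 to Myelo-4, and Il1b was highest outside these clusters. Because the genes differ in this, the promoters of these 4 members are shown. Each runs from 250 bases before to 50 bases after the annotated start (RefSeq, GRCm38.p6), 5′ to 3′ on the gene's strand. Capitals mark matches, on either strand, to 4 short motifs: the C/EBP form TTGCNNAA, the PU.1 core GAGGAA, the AP-1 form TGANTCA and the TATA box TATAAA.
Mmp8 promoter: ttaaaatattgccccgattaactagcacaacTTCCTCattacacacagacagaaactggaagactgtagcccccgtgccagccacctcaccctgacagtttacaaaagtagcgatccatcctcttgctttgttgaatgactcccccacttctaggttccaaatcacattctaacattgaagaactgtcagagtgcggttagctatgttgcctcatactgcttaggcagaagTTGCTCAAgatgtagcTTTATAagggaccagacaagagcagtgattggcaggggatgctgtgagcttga
Retnlg promoter: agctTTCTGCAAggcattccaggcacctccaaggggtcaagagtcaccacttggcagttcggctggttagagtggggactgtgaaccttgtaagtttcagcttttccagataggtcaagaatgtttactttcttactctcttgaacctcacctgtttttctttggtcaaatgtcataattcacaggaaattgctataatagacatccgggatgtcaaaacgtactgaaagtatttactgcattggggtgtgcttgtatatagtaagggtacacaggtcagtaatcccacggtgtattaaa
Padi4 promoter: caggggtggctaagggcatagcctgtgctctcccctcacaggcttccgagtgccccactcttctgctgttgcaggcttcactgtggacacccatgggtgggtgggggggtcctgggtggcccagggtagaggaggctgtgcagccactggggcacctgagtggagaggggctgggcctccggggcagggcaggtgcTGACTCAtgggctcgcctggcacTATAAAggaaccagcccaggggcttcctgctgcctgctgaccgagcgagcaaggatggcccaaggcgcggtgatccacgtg
Il1b promoter: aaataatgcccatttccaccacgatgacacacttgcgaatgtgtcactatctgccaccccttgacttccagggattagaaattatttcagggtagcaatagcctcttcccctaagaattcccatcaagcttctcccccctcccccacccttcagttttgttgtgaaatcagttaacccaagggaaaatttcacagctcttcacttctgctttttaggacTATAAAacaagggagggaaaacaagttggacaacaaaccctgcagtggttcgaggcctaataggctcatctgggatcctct
The windows are chr9:7558179-7558478 on the plus strand for Mmp8, chr16:48872358-48872657 on the plus strand for Retnlg, chr4:140774154-140774453 on the minus strand for Padi4 and chr2:129371090-129371389 on the minus strand for Il1b. The Mmp8 window held a C/EBP match (TTGCTCAA) that began 19 bases before the start, a PU.1 core 219 bases before it and a TATA match on the other strand 3 bases before it. The Retnlg window held 1 match, a C/EBP form 246 bases before the start. The Padi4 window held an AP-1 match (TGACTCA) 54 bases before the start and a TATA box 31 bases before it, and the Il1b window held only a TATA box, also 31 bases before its start. Of the members not printed, the Cxcr2 window held the PU.1 core 2 times and the Ccl6 window none of the 4 motifs. Mmp9 has no sequence shown. None of these letters is rare: over 32851 promoter windows, 10.8% held the C/EBP form, 28.3% the PU.1 core, 7.81% the AP-1 form and 13.6% the TATA box. The matches are a description of the letters and were not tested for binding. The marked stretches do not overlap each other.

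The 11132 cells split into 4336 female and 6796 male cells, with 91448433 UMIs in the female and 124967351 UMIs in the male library. Myelo-4 was small, with 31 female and 28 male cells, or 0.715% of the female and 0.412% of the male library, and it was shallow, with a median of 5844 and 5057 UMIs per cell. Myelo-3 held 426 female and 529 male cells at medians of 9531 and 8770 UMIs. All 8 neutrophil markers (Ly6g, S100a8, S100a9, Camp, Ltf, Lcn2, Ngp, Csf3r) had UMIs in both clusters and libraries, and Ly6g stood at 1828 and 1603 CPM (UMI counts scaled to the same total in each sum) in Myelo-4, against 432 and 362 CPM in Myelo-3. Of 6 monocyte genes, 4 and 3 had UMIs in Myelo-4, summing to 67.9 and 38.5 CPM there, against 55.9 and 60.1 CPM in Myelo-3, with Csf1r and Ccr2 at 0 in Myelo-4. In all, 9 lists of other cell types summed to between 0 and 154 CPM there, the upper end being T and NK cell genes and mostly Nkg7. The 45 barcodes found in both libraries had equal antibody counts in the 2, so their antibody values cannot be assigned to a sex. Of the 90 cells concerned, 8 were in Myelo-3 and 1 in Myelo-4. Throughout, the female library's value precedes the male library's. The cluster names were given by the authors to these same cells, and whether the members' RNA went into them is not stated. A p-value between clusters therefore only sets a difference against the count noise and spread modelled over the sums of 2 libraries. It is no test of the cluster names. Intervals cover counting error only.

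Mmp8, Mmp9 and Retnlg were the members that marked Myelo-4. Mmp8, the collagenase, reached 1118 and 1116 CPM in Myelo-4 (214 and 174 UMIs), against 24.0 and 24.9 CPM in Myelo-3. Mmp9, gelatinase B, reached 836 and 609 CPM in Myelo-4 (160 and 95 UMIs), against 85.8 and 73.2 CPM in Myelo-3. Retnlg, the resistin-like gene, reached 3645 and 4240 CPM in Myelo-4 (698 and 661 UMIs), against 165.5 and 141 CPM in Myelo-3. For each of the 3 genes, both Myelo-4 sums were far above both Myelo-3 sums and the ranges did not overlap. Myelo-4 with its 59 cells thereby held 28.9% of all Mmp8 UMIs in the series, 19.8% of the Retnlg UMIs and 15.04% of the Mmp9 UMIs. Myelo-3, with far more cells, held 17.2% of the Mmp8 UMIs, 20.9% of the Retnlg UMIs and 44.0% of the Mmp9 UMIs.

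Below Myelo-4, the 3 genes formed a falling series through the Myelo clusters, with steps of different size. Mmp9 averaged 722 ± 160 CPM in Myelo-4 (SD, n = 2 libraries), 79.5 ± 8.90 in Myelo-3, 19.98 ± 0.979 in Myelo-2 and 13.5 ± 6.87 in Myelo-1, and at most 5.21 CPM in any of the other 13 clusters. Both libraries gave that order without overlap between neighbours. Mmp8 averaged 1117 ± 1.12 CPM in Myelo-4 and 24.4 ± 0.621 in Myelo-3. Its Myelo-2 values of 6.24 and 18.1 CPM overlapped its Myelo-1 values of 7.43 and 15.6 CPM, so these neighbours were not told apart, and it stayed at or below 9.91 CPM on average elsewhere. Retnlg averaged 3942 ± 420 CPM in Myelo-4, 153 ± 17.3 in Myelo-3, 93.4 ± 13.9 in Myelo-2 and 57.1 ± 25.3 in Myelo-1. Unlike Mmp9, Retnlg had UMIs under every cluster name, with averages of 7.38 to 19.7 CPM in the other 13.

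**Figure D1:**
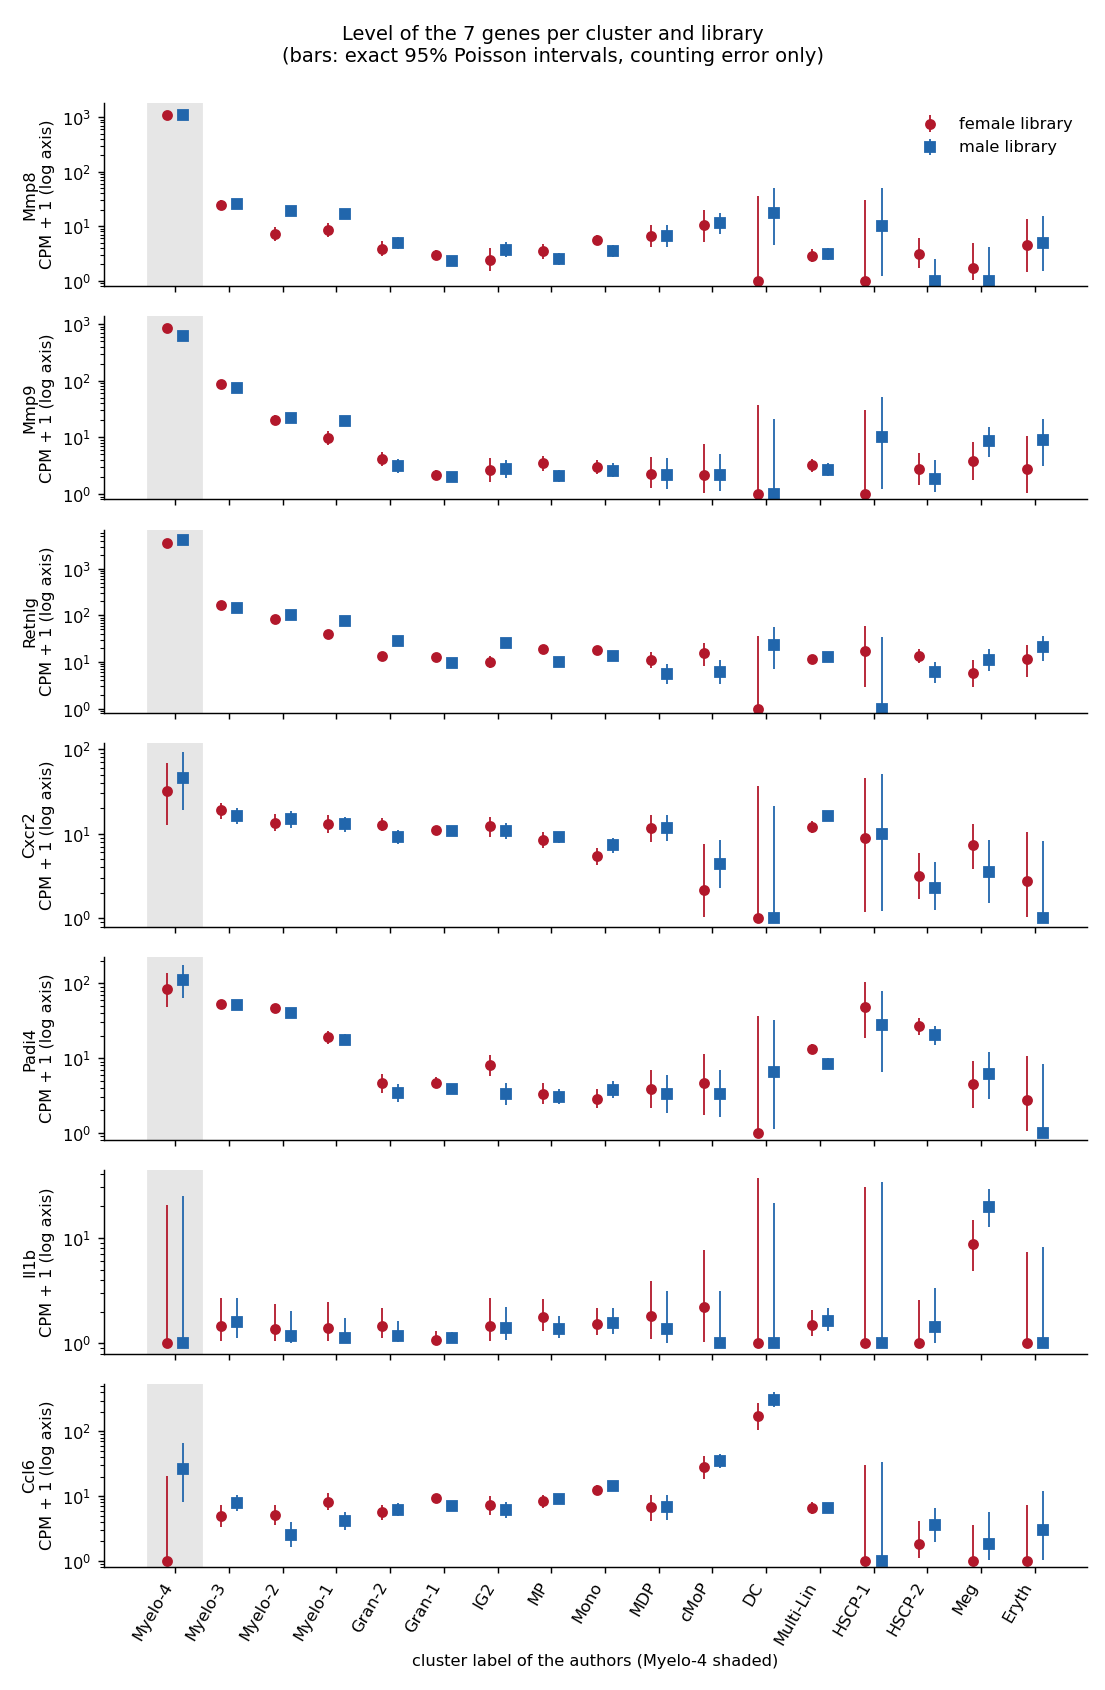
CPM + 1 of the 7 genes by cluster on a log axis, each point 1 library, with exact Poisson 95% intervals. Mmp8, Mmp9 and Retnlg peak in Myelo-4, whereas Il1b peaks in Meg at 7.68 and 18.6 CPM and Ccl6 in DC at 173 and 310 CPM.

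The receptor gene Cxcr2 was low everywhere and graded. It stood at 31.3 and 44.9 CPM in Myelo-4, which rests on 6 and 7 UMIs, against 17.9 and 15.2 CPM in Myelo-3 (76 and 79 UMIs). The Myelo-4 sums were the highest of the 17 clusters in both libraries, but the Poisson interval of the female sum, 11.5 to 68.2 CPM, includes the Myelo-3 level, while that of the male sum, 18.1 to 92.5 CPM, lies above it. Next in order, Myelo-2 averaged 13.1 ± 0.920 CPM, and its range overlapped that of Multi-Lin (11.02 and 15.2 CPM), which in turn overlapped that of Myelo-1 (12.2 and 11.9 CPM). DC had no Cxcr2 UMI, which with 3 counts as the limit allows up to 28.9 and 16.6 CPM. Cxcr2 was thus found outside the granulocyte clusters at levels not far from those of Myelo-3, and Myelo-4 held 0.611% of its UMIs.

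Padi4, the arginine deiminase gene, had a flatter course through the Myelo series. It had 83.6 and 109.0 CPM in Myelo-4 (16 and 17 UMIs), against 51.5 and 50.1 CPM in Myelo-3 (219 and 260 UMIs). The sums did not overlap. A Padi4 UMI was in 38.7% and 42.9% of Myelo-4 cells, against 38.7% and 34.8% of the deeper Myelo-3 cells, and with each cell thinned to 4000 UMIs in 29.0% and 28.6% of Myelo-4 cells, against 22.1% and 18.5% of Myelo-3 cells. By CPM, in Myelo-2 Padi4 stood at 45.8 and 38.6 CPM, close under Myelo-3, and in Myelo-1 at 18.2 and 16.7 CPM. The stem-like cluster names also carried it: HSCP-1 had 47.9 and 26.8 CPM, from 6 and 3 UMIs in 14 and 10 cells, and HSCP-2 had 25.6 and 19.3 CPM. Multi-Lin had 12.4 and 7.42 CPM, and no other cluster averaged above 4.66 CPM.

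Il1b and Ccl6 were found chiefly outside the neutrophil clusters. Il1b, the interleukin-1 beta gene, had no UMI in Myelo-4 in either library, which with 3 counts as the limit allows up to 15.7 and 19.2 CPM, and Myelo-3 had 0.470 and 0.578 CPM from 2 and 3 UMIs. Depth in Myelo-4 therefore cannot place Il1b below the other clusters. The highest level found was in Meg, at 7.68 and 18.6 CPM (11 and 22 UMIs), where 10 of 86 female cells and 17 of 85 male cells had one. No other cluster averaged above 0.598 CPM. The megakaryocyte marker Pf4 stood at 5354 and 3596 CPM in Meg, so the cluster carries the genes its name calls for. Ccl6, the chemokine gene, had 0 and 4 UMIs in Myelo-4, or 0 and 25.7 CPM, against 3.996 and 6.94 CPM in Myelo-3, and the groups overlapped. Ccl6 was highest in DC at 173 and 310 CPM, where 6 of 11 cells in the first library and 15 of 22 in the other had a UMI. The monocyte-lineage clusters followed, cMoP at 27.4 and 34.3 CPM and Mono at 11.5 and 13.6 CPM. For neither gene did the deposited counts show a neutrophil level above that of every other lineage, within the depth of Myelo-4.

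Across 9519 genes tested with edgeR's quasi-likelihood test, 264, or 2.77%, were higher in Myelo-4 than in Myelo-3 at a Benjamini-Hochberg adjusted p below 0.05, and 527 were lower. Of the 6 members tested, 4 were higher, and none lower, against that background of 2.77%. Il1b had too few UMIs to be tested. Mmp8 had a log2 fold change of 5.53 ± 0.16 (SE), or 46.3-fold, the second largest of all genes tested (edgeR adjusted p = 1.47e-84). Retnlg followed at 4.65 ± 0.12, or 25.2-fold (edgeR adjusted p = 1.16e-92), and Mmp9 at 3.18 ± 0.15, or 9.08-fold (edgeR adjusted p = 1.19e-49). Such small p-values draw on a spread shared between genes over 3 residual degrees of freedom, not on many animals. Padi4 rose by 0.88 ± 0.28 (edgeR adjusted p = 0.0301), a call that did not hold when all 17 clusters entered the fit (0.68, edgeR adjusted p = 0.228) or when every cell was thinned to 4000 UMIs (0.58, edgeR adjusted p = 0.366). Cxcr2 had a log2 fold change of 1.17 ± 0.48 (edgeR adjusted p = 0.132), which passed with DESeq2 (1.30, DESeq2 adjusted p = 0.0476), and Ccl6 one of 0.98 ± 0.93 (edgeR adjusted p = 0.605). The median over all genes tested was -0.40, or -0.27 with RLE scaling, so each value is higher still relative to the typical gene. RLE scaling gave 339 higher and 378 lower genes.

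The earlier steps of the series separated the members further. Against Myelo-2, Myelo-4 was higher for 5 of the 6 members tested, with 3.61% of genes called higher: Mmp8 at 6.53 ± 0.17, Retnlg at 5.38 ± 0.12, Mmp9 at 5.17 ± 0.17, Cxcr2 at 1.49 ± 0.50 (edgeR adjusted p = 0.0296) and Padi4 at 1.15 ± 0.29 (edgeR adjusted p = 0.0017). By CPM in each library alone, the Mmp8 log2 ratio was 7.48 among female and 5.95 among male cells. Between Myelo-3 and Myelo-2, with 4.01% of genes called higher, Mmp9 was 1.99 ± 0.14 higher in Myelo-3 (edgeR adjusted p = 4.85e-29). Mmp8 at 1.00 ± 0.19 (edgeR adjusted p = 1.42e-05) and Retnlg at 0.73 ± 0.11 (edgeR adjusted p = 1.31e-07) also passed, though neither did without the library term (0.102 and 0.0733) or with DESeq2 (0.517 and 0.116). The libraries differed at this step: the log2 CPM ratio of Mmp8 was 1.94 by the female library alone and 0.46 by the male one, and that of Retnlg 0.99 and 0.45. In Myelo-2, 4 female and 13 male cells had 10 or more UMIs of Mmp8, Mmp9 and Retnlg together. They held 57.6% and 86.6% of the Mmp8 UMIs there. Without such cells, Mmp8 stood at 6.73 and 9.83 CPM in Myelo-3, against 2.69 and 2.55 CPM in Myelo-2. Retnlg then stood at 117 and 81.3 CPM, against 80.9 and 66.4 CPM. The cells were chosen by these UMIs, so the values are a description. Padi4 at 0.27 and Cxcr2 at 0.32 did not pass at this step (edgeR adjusted p = 0.191 and 0.379). Between Myelo-2 and Myelo-1, with 19.7% of genes called higher, Padi4 had its largest step, 1.69 ± 0.14 (edgeR adjusted p = 1.56e-23), followed by Retnlg at 1.11 ± 0.12 (edgeR adjusted p = 1.02e-15) and Mmp9 at 0.89 ± 0.17 (edgeR adjusted p = 4.21e-06). Cxcr2 had 0.55 ± 0.20 (edgeR adjusted p = 0.0188), and neither it nor Mmp9 passed at that step with DESeq2 (adjusted p = 0.155 and 0.169). This step depends on the scaling: the median over all genes was -0.01 with TMM and -0.44 with total counts and no scaling factor. Without the factor Padi4 had 1.27, Retnlg 0.70, Mmp9 0.48 (edgeR adjusted p = 0.0458) and Cxcr2 0.12 (edgeR adjusted p = 0.642). The unscaled CPM of Cxcr2 was 12.5 and 13.8 in Myelo-2, against 12.2 and 11.9 in Myelo-1. By library alone, the log2 CPM ratio of Mmp9 was 1.15 among female and 0.17 among male cells, and that of Retnlg 1.09 and 0.46. In Myelo-1, 4 female and 16 male cells had 10 or more UMIs of the 3 granule genes together. They held 31.0% and 46.0% of the Mmp9 UMIs and 28.4% and 66.0% of the Retnlg UMIs there. Without such cells, Mmp9 stood at 17.3 and 13.5 CPM in Myelo-2, against 6.11 and 10.4 CPM in Myelo-1. Retnlg then stood at 80.9 and 66.4 CPM, against 28.6 and 26.7 CPM. Mmp8 at 0.45 did not pass (edgeR adjusted p = 0.0652).

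Within Myelo-4 the 3 granule genes were found in nearly every cell, although these were the shallow cells. Mmp8 had a UMI in 87.1% and 85.7% of Myelo-4 cells (exact binomial intervals 70.2 to 96.4% and 67.3 to 96.0%), against 7.75% and 8.32% of Myelo-3 cells. Mmp9 had a UMI in 96.8% and 92.9% of Myelo-4 cells, against 39.0% and 33.8% of Myelo-3 cells. Retnlg had a UMI in 93.5% and 96.4% of Myelo-4 cells, against 58.0% and 44.2% of Myelo-3 cells. With each cell thinned to 4000 UMIs, which left out no cell of these clusters, the Mmp8 shares were 74.2% and 82.1% in Myelo-4, against 5.40% and 5.67% in Myelo-3. A Myelo-4 cell held a median of 5 and 5 Mmp8 UMIs, 4 and 3.5 Mmp9 UMIs and 11 and 10.5 Retnlg UMIs. All 3 genes had a UMI in 80.6% and 75.0% of Myelo-4 cells, against 3.99% and 4.16% of Myelo-3 cells, and no Myelo-4 cell lacked all 3. The shares without any of the 3 in Myelo-3 were 27.5% and 38.2%.

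Retnlg UMIs were also found in cells of other lineages. In Eryth, erythroid-lineage cells that should lack these genes, 14.6% and 9.30% of cells had a Retnlg UMI at a median of 12993 and 10904 UMIs, and in HSCP-2 10.9% and 4.14% had one. Mmp8 had a UMI in 1.95% and 0% of HSCP-2 cells and Mmp9 in 1.56% and 0.690%. Retnlg shares at or below those of Eryth and HSCP-2 are not taken here as expression by the cells, and their source was not tested. Retnlg also stood at 16.6 and 20.2 UMIs per 1000 S100a8 UMIs in Myelo-4, 4.23 and 6.58 in Eryth and 4.55 and 2.38 in HSCP-2, against 0.796 and 0.790 in Myelo-3. The male Eryth value rests largely on 1 of 43 cells, which held 70.0% of the Retnlg UMIs there. That cell had a Ly-6G antibody count of 11392, against a median of 87.5 in the others. Male Eryth stood at 19.6 CPM of Retnlg with it and 6.10 CPM without it. The part of free RNA in these values was not tested.

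**Figure D2:**
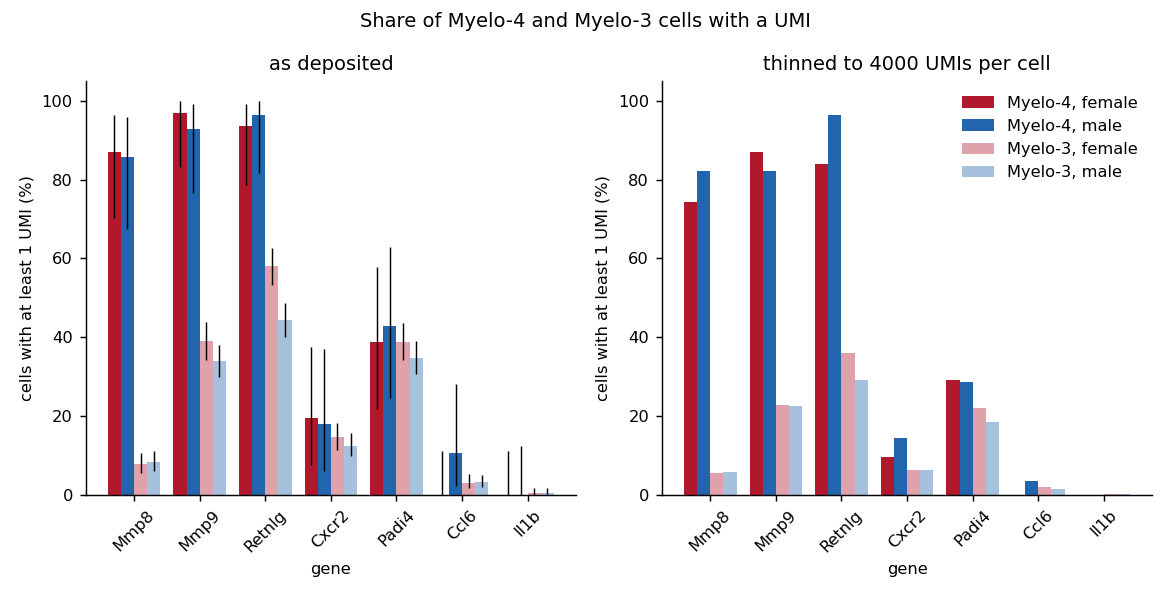
Share of cells with a UMI of each gene in Myelo-4 and Myelo-3, by library, with exact binomial 95% intervals. The right panel has each cell thinned to 4000 UMIs. Mmp8 is at 87.1% and 85.7% of Myelo-4 cells against 7.75% and 8.32% of Myelo-3 cells, and the Padi4 shares overlap.

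Some cells were rich in the 3 transcripts. Cells with 10 or more UMIs of Mmp8, Mmp9 and Retnlg together made up 42 of the 59 Myelo-4 cells (71.2%), against 97 of the 11073 cells elsewhere (0.876%). In Myelo-3 they were 24 female and 18 male cells, 5.63% and 3.40% of the cluster, and they held 73.5% and 62.0% of its Mmp8 UMIs, 33.2% and 44.7% of its Retnlg UMIs and 22.7% and 16.6% of its Mmp9 UMIs. Without them the Myelo-3 levels were 6.73 and 9.83 CPM for Mmp8, 117 and 81.3 CPM for Retnlg and 70.3 and 63.6 CPM for Mmp9. The cells were chosen by these UMIs, so the shares are a description. By cells with any UMI, Mmp9 was found in 166 and 179 Myelo-3 cells and Mmp8 in 33 and 44. By the antibody, which the choice of these cells did not use, they had median Ly-6G counts of 12650.5 and 10179.5, against 3358 and 2105 in the other Myelo-3 cells. Their median total was 8667 and 10325 UMIs, against 9544 and 8697 in the others.

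Cells of this kind also occurred under other cluster names. Myelo-2 held 4 female and 13 male such cells, Myelo-1 held 4 and 16, Gran-2 held 1 and 5, and Multi-Lin held 1 and 3. Gran-1, MP and Mono each held 1 and 1, and IG2 and Eryth each held 0 and 1. The 5 male Gran-2 cells held 75.6% of the cluster's Mmp8 UMIs and had a median Ly-6G count of 11184, against 80 in the other male Gran-2 cells. The 3 male Multi-Lin cells had a median Ly-6G count of 12564, against 132 in the others. Their median CD117 count in Multi-Lin was 123 in the 1 female and 371 in the 3 male cells, against 357 and 205 in the other cells, and in Gran-2 316 and 202, against 287 and 164. The male Multi-Lin ones had a median of 7802 UMIs, against 13808 in the others. No doublet caller was run, and whether these droplets held more than 1 cell was not tested. Outside Myelo-3 and Myelo-4, Mmp8, Mmp9 and Retnlg levels of the clusters that held such cells rest in part on them.

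**Figure D3:**
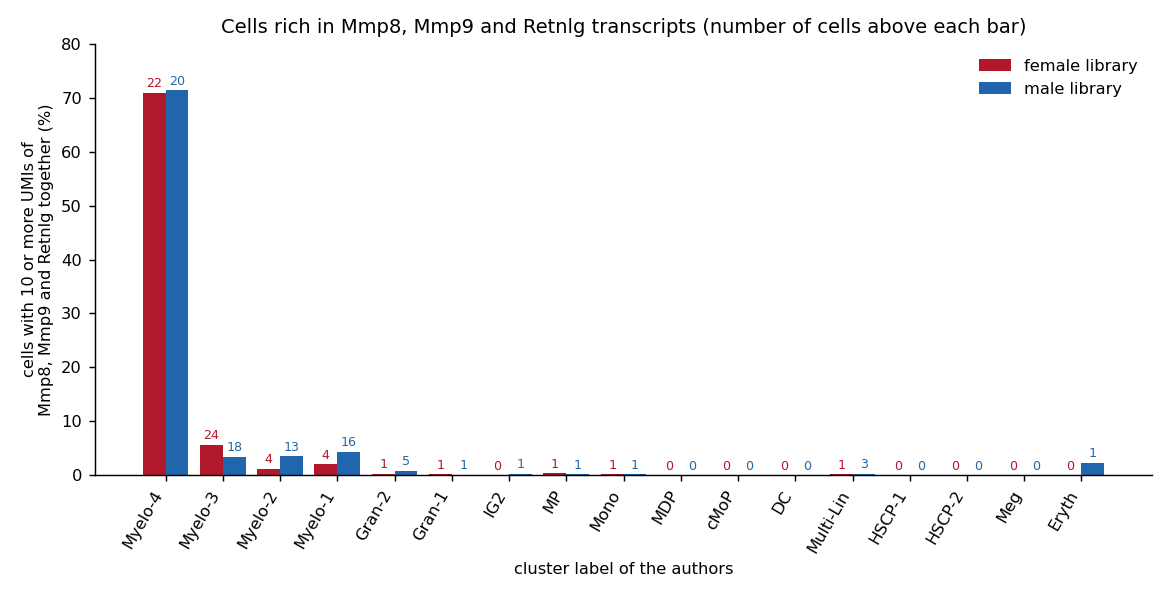
Share of cells, by cluster and library, with 10 or more UMIs of Mmp8, Mmp9 and Retnlg together, with the number of such cells above each bar. Myelo-4 has 22 and 20 such cells, 71.0% and 71.4% of the cluster, against 24 and 18 in Myelo-3, 5.63% and 3.40% of that cluster.

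Surface Ly-6G, a neutrophil marker that accumulates with maturation, gave a readout apart from RNA. Cells of each library were split at the median Ly-6G antibody count of their cluster. In Myelo-3, Mmp8 stood at 46.7 and 45.3 CPM in Ly-6G-high cells (94 and 122 UMIs), against 3.57 and 2.80 CPM in Ly-6G-low cells (8 and 7 UMIs). Mmp9 stood at 137 and 111 CPM in Ly-6G-high cells, against 40.2 and 32.8 CPM in Ly-6G-low cells. Retnlg stood at 226 and 195 CPM in Ly-6G-high cells, against 112 and 83.2 CPM in Ly-6G-low cells. None of the 3 overlapped between the groups. Of 7536 genes tested, 81 were higher with Ly-6G (1.07%), and 4 of the 6 members tested were among them. Mmp8 and Ccl6 passed the low-count filter only through their Ly-6G-high sums, which favours a call in that direction. Their part in this count and the rank of Mmp8 are therefore a description. Both calls held without the filter. Mmp8 had the largest log2 fold change of all genes tested, 3.79 ± 0.28, or 13.8-fold (edgeR adjusted p = 2.24e-36). Mmp9 was 1.71 ± 0.13 higher (edgeR adjusted p = 2.24e-36) and Retnlg 1.07 ± 0.10 higher (edgeR adjusted p = 3.07e-25).

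Ccl6 was the fourth, at 5.96 and 11.5 CPM in Ly-6G-high Myelo-3 cells (12 and 31 UMIs), against 2.23 and 2.00 CPM in Ly-6G-low cells (5 and 5 UMIs). Its log2 fold change was 2.00 ± 0.46 (edgeR adjusted p = 0.0014), a call that rests on few cells. A Ccl6 UMI was in 3.76% and 4.55% of Ly-6G-high cells, against 2.35% and 1.89% of Ly-6G-low cells. Of the 31 male UMIs in Ly-6G-high cells, 24 lay in the top of 4 Ly-6G groups, where 6.06% of cells had one. Padi4 did not pass, at 49.7 and 52.4 CPM in Ly-6G-high cells and 53.1 and 47.6 CPM in Ly-6G-low cells, a log2 difference of -0.02 ± 0.15 (edgeR adjusted p = 0.981). Cxcr2 did not pass either, at 20.4 and 18.6 CPM in Ly-6G-high cells and 15.6 and 11.6 CPM in Ly-6G-low cells (0.48 ± 0.24, edgeR adjusted p = 0.379). Il1b had 2 and 2 UMIs in Ly-6G-high cells, against 0 and 1 in Ly-6G-low cells, and was not tested. Ly6g transcripts themselves stood at 660 and 519 CPM in Ly-6G-high cells, against 228 and 193 CPM in Ly-6G-low cells. Without the cells rich in the 3 transcripts, Mmp8 stood at 10.7 and 16.9 CPM in Ly-6G-high cells, against 3.58 and 2.81 CPM in Ly-6G-low cells. Mmp9 then stood at 108 and 94.4 CPM against 40.3 and 32.9 CPM. Retnlg then stood at 131 and 83.1 CPM in Ly-6G-high cells, against 107 and 79.4 CPM in Ly-6G-low cells. These cells were chosen by the same transcripts, so lower values without them are set in part by the choice.

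**Figure D4:**
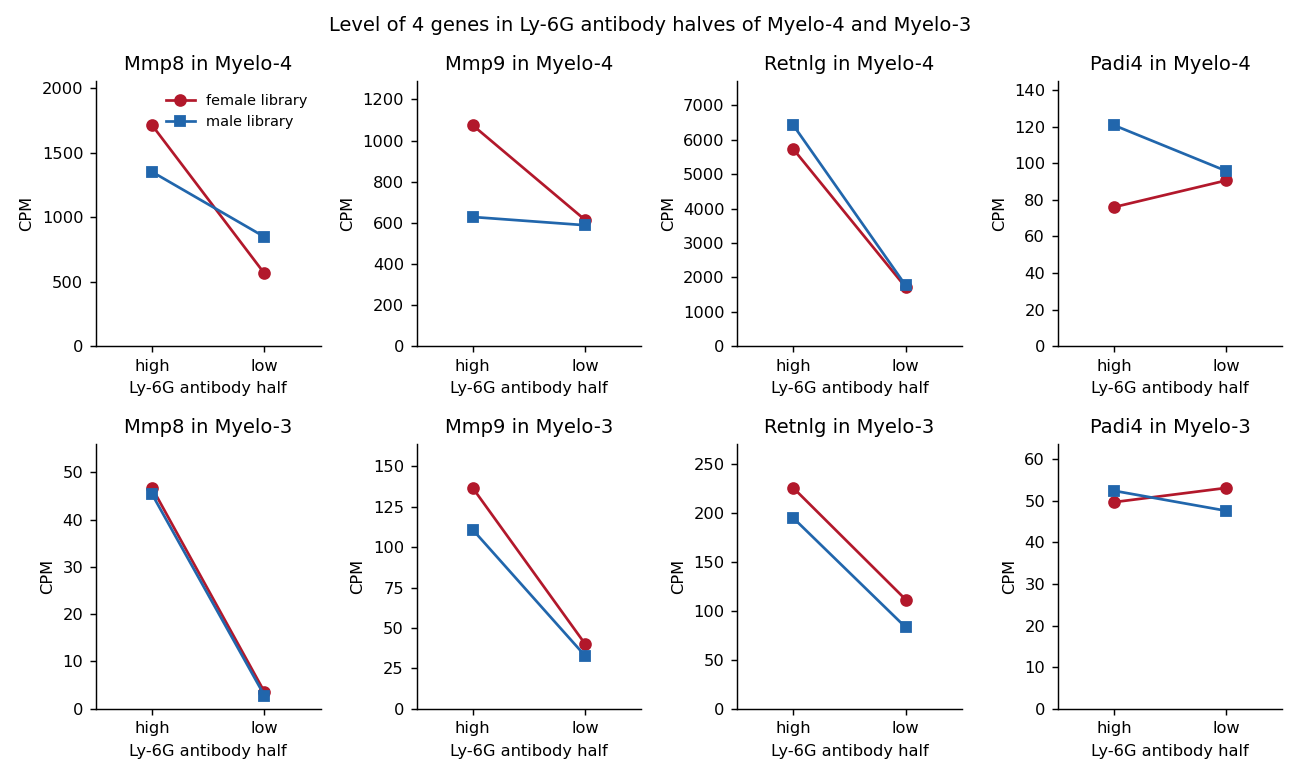
CPM of Mmp8, Mmp9, Retnlg and Padi4 in cells above (high) and not above (low) the median Ly-6G antibody count of Myelo-4 and of Myelo-3, each line 1 library. In Myelo-3, Mmp8 stands at 46.7 and 45.3 CPM in Ly-6G-high cells, against 3.57 and 2.80 CPM in Ly-6G-low cells.

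Within Myelo-4 the pattern was different. Retnlg stood at 5731 and 6425 CPM in Ly-6G-high cells (15 and 14 cells), against 1711 and 1764 CPM in Ly-6G-low cells (16 and 14 cells). Mmp8 stood at 1715 and 1353 CPM in Ly-6G-high cells, against 564 and 848 CPM in Ly-6G-low cells. Mmp9 stood at 1075 and 628 CPM in Ly-6G-high cells, against 614 and 588 CPM in Ly-6G-low cells, higher in each library but by little in the male one. Only 717 genes had enough UMIs to be tested, of which 8 were higher with Ly-6G (1.12%) and 2 lower, and 2 of the 8 were members. Retnlg was 1.74 ± 0.22 higher (edgeR adjusted p = 6.46e-12), the second largest difference of those tested. Mmp8 was 1.08 ± 0.27 higher (edgeR adjusted p = 0.00697), but not past the threshold with DESeq2 (adjusted p = 0.998), with a split on the log share of Ly-6G (edgeR adjusted p = 0.259) or without the cell whose barcode is in both libraries (edgeR adjusted p = 0.335). Under each of these 3 alternatives, 1 gene passed in place of the 10, and Retnlg kept its call. Mmp9 at 0.42 ± 0.28 did not pass (edgeR adjusted p = 0.772). Ly6g transcripts differed little, at 1921 and 1667 CPM in Ly-6G-high cells and 1741 and 1532 CPM in Ly-6G-low cells. The depth of the groups was close, at medians of 5917 and 5392 UMIs in Ly-6G-high cells and 5746.5 and 4970.5 UMIs in Ly-6G-low cells.

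The difference between these Ly-6G effects was itself tested, over unequal antibody contrasts. Median Ly-6G was 22796 and 11144.5 in Ly-6G-high Myelo-4 cells and 10818 and 5534.5 in Ly-6G-low ones, against 8189 and 4723.5 in Ly-6G-high Myelo-3 cells and 1380 and 982 in Ly-6G-low ones. As a ratio of high to low medians, the antibody gap was smaller in Myelo-4, while as a difference in counts it was larger. The part of these unequal gaps was not tested. Of 6772 genes, 12 (0.177%) had a Ly-6G difference in Myelo-4 unlike that in Myelo-3, and 3 of them were members. Mmp8 had the smaller Ly-6G difference in Myelo-4, by a log2 of -2.66 ± 0.37 (edgeR adjusted p = 1.31e-09), and so did Mmp9, by -1.24 ± 0.24 (edgeR adjusted p = 0.000251). Retnlg had the larger Ly-6G difference in Myelo-4, by 0.68 ± 0.17 (edgeR adjusted p = 0.0362), which did not pass without a filter on low counts (edgeR adjusted p = 0.0580) or with the upper and lower of 3 Ly-6G groups in place of a median split (0.43, edgeR adjusted p = 0.997). The rich cells of Myelo-3 lie on the Ly-6G-high side and move with the Mmp8 and Retnlg values there, and their part in this difference was not tested.

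Finer steps of Ly-6G showed at which antibody level each gene was found. Cells were placed in 4 equal groups from low to high Ly-6G. In Myelo-3, Mmp9 climbed through all 4 groups, at 21.0, 62.0, 93.8 and 181 CPM in the female and 26.6, 38.6, 57.3 and 159 CPM in the male library. Mmp8 stayed low until the top groups, at 1.68, 5.72, 14.7 and 79.8 CPM in the female and 3.32, 2.31, 15.7 and 72.0 CPM in the male library. Retnlg was present in the lowest group, at 97.3, 128, 160 and 293 CPM in the female and 64.8, 100.2, 98.9 and 281 CPM in the male library. Mmp9 also followed Ly-6G in Myelo-2, at 3.03, 4.77, 19.95 and 47.0 CPM in the female and 3.16, 5.76, 16.3 and 49.3 CPM in the male library. It did so in Myelo-1 as well, by Spearman's rank correlation over cells. The values for Mmp9 were 0.40 and 0.54 in Myelo-1, 0.42 and 0.38 in Myelo-2 and 0.39 and 0.43 in Myelo-3, with rich cells included. Without the rich cells, the top Ly-6G group of Myelo-2 still had 43.8 and 27.6 CPM of Mmp9, and that of Myelo-3 had 132 and 133 CPM. Mmp8 in the top Myelo-3 group was 15.2 and 22.1 CPM without the rich cells, and Retnlg was 130.3 and 75.3 CPM, against 131 and 90.7 CPM in the group before it. These values are a description, with no test.

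**Figure D5:**
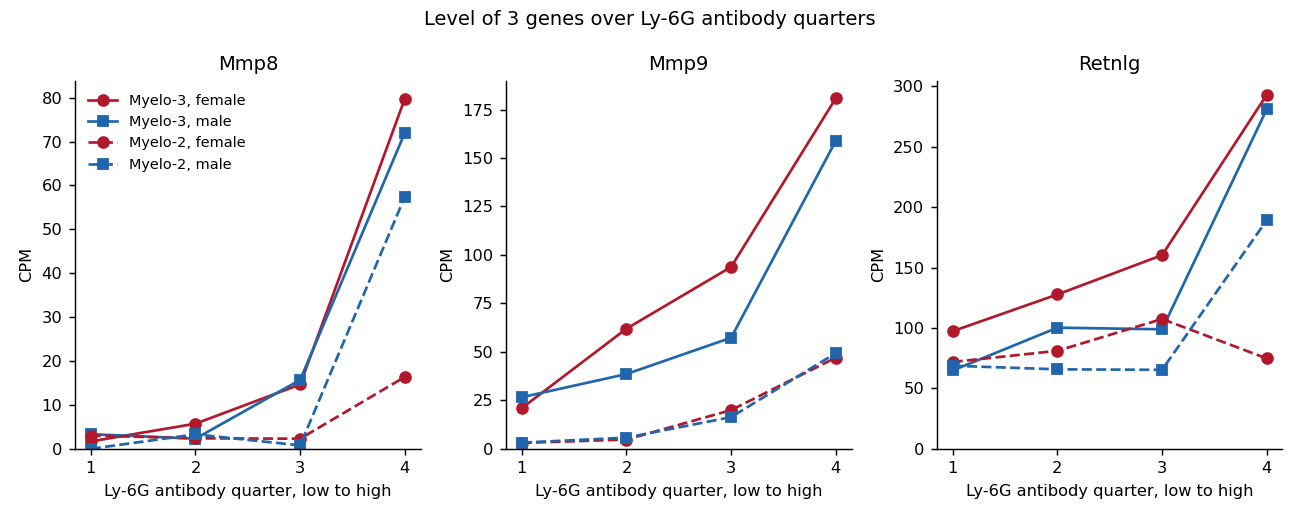
CPM of Mmp8, Mmp9 and Retnlg in 4 groups of cells ordered by Ly-6G antibody count, for Myelo-3 (solid) and Myelo-2 (dashed) in each library. Mmp9 reaches 181 and 159 CPM in the top group of Myelo-3, and Mmp8 stays at or below 15.7 CPM in the groups under it.

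Genes of the same pathways, with the members left out, were compared between Myelo-4 and Myelo-3. These lists were drawn up with results of these data known, and each is read beside the median of -0.40 over all genes and the 2.77% called higher. Of 12 tested genes of gelatinase granules and secretory vesicles, 7 were higher, none lower and 5 did not pass, with a median log2 fold change of 0.74. Among them, the formyl peptide receptor gene Fpr2 stood at 324 and 276 CPM in Myelo-4, against 133 and 79.8 CPM in Myelo-3 (1.49 ± 0.18, edgeR adjusted p = 1.33e-11). Itgam, which encodes CD11b, was higher by 0.67 ± 0.21 (edgeR adjusted p = 0.0226), while its partner Itgb2 at 0.45 did not pass. Of 12 chemotaxis receptors tested, 5 were higher and 7 did not pass, with a median of 0.88. Among the 5 higher genes were Fpr2, its relative Fpr1 (16.03-fold, edgeR adjusted p = 7.5e-07, from 4 and 10 UMIs in Myelo-4 and 11 and 13 in Myelo-3, or 8.08-fold among female and 25.6-fold among male cells), the leukotriene receptor gene Ltb4r1 (0.99 ± 0.15) and the complement receptor gene C5ar1 (1.25 ± 0.21). In Ly-6G-high Myelo-3 cells, 2 of 10 tested genes of the first list were higher, Fpr2 (0.62 ± 0.11, edgeR adjusted p = 2.4e-06) and Ptprc (chosen after its values were seen), and 1 of 11 of the second, Fpr2 again.

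Among genes of earlier granules, those of specific granules were often higher, whereas none of the azurophilic granule genes passed. Of 15 specific granule genes tested, 7 were higher, 2 lower and 6 did not pass, with a median of 0.37, and 9 were higher with RLE scaling. The lists overlap: this one shares higher genes with the gelatinase list, the chemotaxis list (Ltb4r1) and the extracellular trap list (Cybb). Camp, at 54184 and 49542 CPM in Myelo-4 against 64746 and 60491 CPM in Myelo-3, did not pass, and Lyz2 was higher by 0.65 ± 0.14 (edgeR adjusted p = 0.000285). The 2 lower genes, chosen after their values were seen, were Chil3 (-0.76 ± 0.13) and Orm1 (-0.96 ± 0.21). In Ly-6G-high Myelo-3 cells, 1 of 15 tested genes of this list was higher, Cybb (0.27 ± 0.08, edgeR adjusted p = 0.0316), and 2 were lower, with a median of -0.10. Those lower with Ly-6G were Lyz2 (-0.34 ± 0.09, edgeR adjusted p = 0.00984) and Lcn2 (-0.31 ± 0.09, edgeR adjusted p = 0.0349). None of 12 azurophilic granule genes passed with edgeR or DESeq2 (median -0.08; 2 at an unadjusted p below 0.05): Mpo differed by -0.08 and Elane by 0.02. Of 3 genes of metalloproteinases and their inhibitors tested, 1 was higher: Timp2, an inhibitor, at 73.1 and 57.7 CPM in Myelo-4 against 13.4 and 13.9 CPM in Myelo-3 (2.28 ± 0.42, edgeR adjusted p = 9.8e-06).

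The pathways of the other members gave few calls. Of 8 genes tested for arginine deiminases and extracellular traps, 1 was higher, Cybb, an NADPH oxidase subunit (0.45 ± 0.12, edgeR adjusted p = 0.00749), and 3 were with RLE scaling or DESeq2. None of 9 genes of the interleukin-1 family and inflammasome passed with edgeR under either scaling, at a median of 0.99, but 4 had an unadjusted p below 0.05 and DESeq2 called 3 higher. Of 4 chemokine ligand genes other than Ccl6 tested, 1 was higher: Cxcl2, whose product binds Cxcr2, at 31.3 and 57.7 CPM in Myelo-4, against 7.76 and 7.90 CPM in Myelo-3 (2.46 ± 0.53, edgeR adjusted p = 0.000229). The other 3, Ccl9 (-1.10), Ccl4 (-0.77) and Ccl3 (-0.71), had negative values and did not pass, and the list median was -0.74. In Myelo-4, 3 UMIs equal 15.7 and 19.2 CPM, so these levels rest on few UMIs. None of the 3 other resistin-like genes had enough UMIs to be tested. Among 10 regulators tested, 2 were higher, 2 lower and 6 did not pass, at a median of -0.44. Klf2 was higher (0.88 ± 0.13, edgeR adjusted p = 6.59e-09) and so was Junb, chosen after its values were seen. Cebpb was lower (-0.85 ± 0.24, edgeR adjusted p = 0.0071) but not with DESeq2 (-0.71, DESeq2 adjusted p = 0.0908). Cebpe, a factor for secondary granule genes, was lower at -0.50 ± 0.14 (edgeR adjusted p = 0.00904) but not with RLE scaling (-0.36, edgeR adjusted p = 0.110) or DESeq2 (-0.36, DESeq2 adjusted p = 0.102), which called no regulator lower.

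Likeness of pattern was measured as Pearson's r of log2(CPM + 1), averaged over both libraries, across the 17 clusters, among 7046 genes that reached 20 CPM in some cluster. It is a description over points that share 2 libraries. Mmp8 was most like F730016J06Rik (0.96), Fpr1 (0.95) and Scrg1 (0.94). Mmp9 was most like Ceacam10, Cd3d and Krt83 (0.97 each), and Retnlg most like Cd3d, Slfn4 and Ceacam10 (0.97 each). Cd3d, known as a T-cell receptor subunit gene, rests on 4 and 5 UMIs in Myelo-4, where Cd3e and Trbc2 were at 0. Ceacam10 stood at 209 and 205 CPM in Myelo-4. Padi4 was most like Ipcef1 (0.97), Cd33 (0.93) and Tmem154 (0.92), and Cxcr2 most like Tecr (0.89), Tst (0.88) and Msra (0.88). Il1b went with F2rl2 (0.93), Pf4 (0.91) and Cavin2 (0.91), and Ccl6 with Mpeg1, Cysltr1 and Asah1 (0.92 each). Among the members themselves, Mmp9 and Retnlg were the closest pair named here (0.959), then Mmp8 and Retnlg (0.914) and Mmp8 and Mmp9 (0.875). Mmp9 with Padi4 gave 0.750, whereas Il1b and Ccl6 with Mmp8 gave -0.316 and 0.0788.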

How the data were processed

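Cells of 1 male and 1 female mRNA library and 1 pooled antibody library were used. The authors deposited UMI counts per gene and cell, cluster names, and antibody values on a natural log scale together with antibody counts. Cell Ranger 2.1.0 and mm10 are named in the submitters' processing notes; the steps for cell filtering, doublets and clustering are not stated there or elsewhere in what was used here. All 44528 deposited natural log values equal ln((count + 1)/(sum + 1)) over the 4 antibodies within 1e-08.

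Here, UMI counts were summed per library and cluster and given as CPM of those sums. The 7 members, the gene lists and the comparisons were chosen with earlier results of these data known. edgeR 4.0.16 (R 4.3.3) fitted quasi-likelihood models with TMM scaling, filterByExpr and the library as a term: 8 sums of the 4 Myelo clusters (3 residual degrees of freedom) and 4 sums per Ly-6G split (1 residual degree of freedom; cells at the median went to the low side). P-values were adjusted by Benjamini-Hochberg across every gene in the fit, and 0.05 was the threshold. An SE is the log2 fold change over the root of its F. The library pairs the sums because each library gave every cluster. Alternatives used DESeq2 1.42.0, RLE scaling, other filters, other cells and no library term. The rest used Python 3.11.15 with pandas 2.3.3, numpy 2.4.6, matplotlib 3.10.9 and scipy 1.17.1, and the fits were tested on simulated counts. Named genes are the 7 members, the up to 4 most abundant genes of each list over Myelo-3 and Myelo-4, and the 3 genes with the highest r for each member; others are said to be chosen after their values were seen. 1 gene that this rule names is not reported here. Sequences are from RefSeq (GRCm38.p6), where 6 of the 7 members had a promoter window. Female cells gave 91448433 UMIs and male cells 124967351, and intervals (95%) cover counting error only. With 1 library a sex, sex and library cannot be told apart.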

Additional observations from a re-analysis of the deposited data

Results flagged for a closer look

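The Ly-6G difference of 3 members was not the same in Myelo-4 as in Myelo-3 by the interaction test. Mmp8 had a log2 value of -2.66 (edgeR adjusted p = 1.31e-09), which means a smaller Ly-6G difference in Myelo-4, in both libraries. Mmp9 had -1.24 (edgeR adjusted p = 0.000251), likewise smaller in Myelo-4. The antibody gap between the groups was also unequal. Median Ly-6G was 22796 and 11144.5 in high and 10818 and 5534.5 in low Myelo-4 cells. In Myelo-3 it was 8189 and 4723.5 in high and 1380 and 982 in low cells. The gap in Myelo-4 was thus smaller as a ratio but larger as a difference in counts, and its part was not tested. Retnlg had 0.68 (edgeR adjusted p = 0.0362), a larger Ly-6G difference in Myelo-4. The Mmp8 and Mmp9 calls held with RLE scaling, without a low-count filter, without shared barcodes and with the upper and lower of 3 Ly-6G groups, and the Retnlg call did not hold without the filter or with those groups.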

How the results depend on the processing

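Of the members' calls between Myelo-4 and Myelo-3, those of Mmp8, Retnlg and Mmp9 held under every alternative tried, and 561 to 791 genes passed against 791 as reported; without the replicate block 684 passed. Padi4 did not pass with all 17 clusters (0.68), without the top 5% of cells (0.86, edgeR adjusted p = 0.0504), without a filter (0.85, edgeR adjusted p = 0.0721) or thinned (0.58), and Cxcr2 passed with DESeq2 (1.30). Between Myelo-3 and Myelo-2, 748 genes passed as reported, 180 with DESeq2 and 201 with no replicate block. Between Myelo-2 and Myelo-1, 3821 passed, and 2187 with DESeq2. With Ly-6G in Myelo-4, 10 passed as reported and 1 each with DESeq2, the log-share split and without shared barcodes (an alternative, like total counts with no scaling factor, chosen after seeing the data); in Myelo-3, 183 passed, 16 with DESeq2 and 79 thinned. The cause was not tested. Apart from these and the calls named beside their results above, no alternative changed a member's call or a called sign. DESeq2 gave no adjusted p for Ccl6 between Myelo-4 and Myelo-3, nor for Mmp8, Cxcr2 and Ccl6 by Ly-6G in Myelo-3. Leaving out 1 library leaves no test: between Myelo-4 and Myelo-3 the log2 ratio was 5.48 to 5.51 for Mmp8, 3.08 to 3.22 for Mmp9, 4.40 to 4.93 for Retnlg, 0.75 to 1.59 for Cxcr2 and 0.63 to 1.15 for Padi4, and 1.91 for Ccl6 in the only library with a value. In Myelo-4 by Ly-6G it was 0.58 to 1.56 for Mmp8, 0.00 to 0.76 for Mmp9 and 1.70 to 1.77 for Retnlg. In Myelo-3 by Ly-6G it was 3.69 to 3.94 for Mmp8, 1.68 to 1.75 for Mmp9, 1.00 to 1.15 for Retnlg, 0.36 to 0.60 for Cxcr2, 1.40 to 2.45 for Ccl6 and -0.12 to 0.06 for Padi4. Depth limits Cxcr2, Il1b and Ccl6 in Myelo-4, where 3 UMIs equal 15.7 and 19.2 CPM.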
